A study of Mus musculus and Homo sapiens with 10 samples.

Results

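The main replication-dependent histone gene clusters were examined as regions carrying acetylation of histone H3 at K122 and K64 in its globular domain and at K27 in its tail. Members were the islands, meaning stretches of enriched sequence called by the authors, that overlapped chr13:21800000-23900000 of mouse build mm9 or chr6:26000000-27900000 of human build hg19. These windows of 2.1 and 1.9 Mb held 911 of the 632878 islands in 6 lists, with 327 in mouse and 584 in human. The mouse lists came from 46c embryonic stem cells (mESC), an undifferentiated line with a Sox1-GFP reporter, grown without feeders with Lif and serum and taken at passages 25 to 28. The human lists came from K562 cells, an erythroleukaemia line at passage 14. Each mouse mark had 2 replicates that the authors merged before calling islands, while H3K122ac, H3K27ac and H3K4me1 in K562 had 1 library each beside 1 input library. Chromatin was cut with micrococcal nuclease. In mESC the window held 107 of 92957 H3K122ac islands, 70 of 57512 H3K64ac islands and 150 of 122097 H3K27ac islands. In K562 it held 136 of 72662 H3K122ac islands, 274 of 173981 H3K27ac islands and 174 of 113669 islands of H3K4me1, a methyl mark typical of enhancers. Cluster islands held 83025 H3K122ac, 113778 H3K64ac and 42129 H3K27ac reads in mESC, and 79327 H3K122ac, 120069 H3K27ac and 88693 H3K4me1 reads in K562.

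Replication-dependent histone genes encode the bulk of the H1, H2A, H2B, H3 and H4 proteins that package newly copied DNA. They lie in tight groups, lack introns, are strongly transcribed in S phase, and give messenger RNAs that end in a stem-loop instead of a poly(A) tail. K122 and K64 lie on the lateral surface of the nucleosome, where H3 touches DNA, whereas K27 lies in the flexible tail and its acetylation is a usual sign of promoters and enhancers in use. Each list has 1 set of islands per mark, so no test between replicates could be made, and the windows are described beside the other islands of the same list. Intervals are at the 95% level and take in counting error alone, since islands beside each other are not independent. For coverage they count 200 bp windows as if independent, although 1 island can span many. Those intervals are thus too narrow and do not measure a spread between samples. Histone genes of the same type are similar to each other in sequence, and the sources used here do not give how reads that fit several copies were placed.

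In the gene order of RefSeq's GRCm38.p6 table, the mouse cluster held 52 protein-coding histone genes: 6 of H1, 12 of H2A, 13 of H2B, 9 of H3 and 11 of H4, with H4bc24 counted on its own. They fell into 4 runs. The first run, bounded by H2bc13 and H4bc24, had 18 genes. It was followed by 3 other genes bounded by Zfp184 and Prss16, and then by a run of 5 histone genes bounded by H2ac12 and H2bc11. Next came 41 non-histone genes, 36 of them Vmn1r genes, which encode vomeronasal pheromone receptors. A run of 20 histone genes bounded by H4c8 and H4c3, the iron-regulatory gene Hfe, and a run of 9 histone genes bounded by H1f2 and H1f1 closed the order, and 2 histone genes beyond the Slc17a transporter genes were left out. Between the first and last histone gene the table also placed 77 tRNA genes and 39 Vmn1r pseudogenes. That table is of another build than the islands, so it gives the order of genes and no island was assigned to a gene.

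One promoter per histone type is shown because promoters are where transcription of these genes starts, with 150 bases before the RefSeq start in GRCm38.p6. Capitals mark the TATA box (TATAAA or, on the other strand, TTTATA), the CCAAT box (CCAAT or ATTGG) and the octamer (ATTTGCAT or ATGCAAAT). Each is the lowest-numbered gene of its type with an entry. The regions are chr13:23763518-23763667 on the plus strand for H1f1, chr13:23750938-23751087 on the plus strand for H2ac4, chr13:23746584-23746733 on the plus strand for H2bc3, chr13:23752195-23752344 on the plus strand for H3c2 and chr13:23761250-23761399 on the minus strand for H4c1.
H1f1: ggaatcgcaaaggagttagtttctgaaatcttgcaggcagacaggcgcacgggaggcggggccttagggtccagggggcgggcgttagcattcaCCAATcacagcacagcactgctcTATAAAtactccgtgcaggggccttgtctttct
H2ac4: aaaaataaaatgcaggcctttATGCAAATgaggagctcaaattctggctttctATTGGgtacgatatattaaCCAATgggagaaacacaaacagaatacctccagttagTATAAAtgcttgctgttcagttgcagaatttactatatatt
H2bc3: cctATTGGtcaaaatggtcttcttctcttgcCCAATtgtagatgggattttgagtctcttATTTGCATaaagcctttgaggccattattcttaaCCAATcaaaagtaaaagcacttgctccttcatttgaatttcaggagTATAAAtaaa
H3c2: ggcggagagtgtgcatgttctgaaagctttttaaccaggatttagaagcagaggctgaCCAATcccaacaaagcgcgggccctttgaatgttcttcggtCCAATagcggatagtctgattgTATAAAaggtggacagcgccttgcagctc
H4c1: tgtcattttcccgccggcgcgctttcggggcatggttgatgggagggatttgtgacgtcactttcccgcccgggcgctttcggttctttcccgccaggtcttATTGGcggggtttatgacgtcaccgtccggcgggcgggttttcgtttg

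Promoter entries of 250 bases before to 50 after the start were found for 49 of the 52 genes. Only the 250 bases before the start were searched, here and in all promoters of the table. A CCAAT box on either strand stood in 41 of the 49 (83.7%), against 34.5% of all 27025 promoters in the table. It was present in all 6 H1, 12 H2A, 12 H2B and 7 H3 promoters, in the 1 of H4bc24 and in 3 of 11 H4 promoters. TATAAA stood in 24 of the 49 (49.0%), against 12.97% of all promoters. The octamer, the letters bound by Oct-family factors, stood in 8 of the 49 (16.3%), against 1.61% of all promoters. Those 8 were 4 H2A and 4 H2B promoters, and the letters were in none of the H1, H3 or H4 windows. In the printed promoters TATAAA begins 33 bases before the start of H1f1, 41 before H2ac4, 29 before H3c2 and 10 before H2bc3, and H4c1 has no exact match. The matches are letters in these windows and do not show that a factor binds. G and C made up a median of 44.8% of the bases searched in the 49, against 52% in all promoters. The part of base content in the motif shares was not tested.

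The windows carried more island sequence than the genome at large for all 3 marks of each cell line, though only slightly more for mESC H3K27ac. In mESC, H3K64ac islands covered 20.9% of the window (20.1 to 21.7%), against 7.96% of the whole genome by the same list. H3K122ac covered 19.99% of the window (19.2 to 20.8%), against 8.95% of the genome. H3K27ac covered 9.25% of it (8.71 to 9.82%), against 7.40% of the genome. As called, the excess in the mouse window was larger for both globular-domain marks than for the tail mark. H3K27ac islands were called with a smaller gap setting, so the lists are not fully alike. Joined across 600 bp they covered 9.74% of the window, and no genome value was computed for that setting.

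In K562 the excess was larger. H3K122ac islands covered 31.6% of the window (30.7 to 32.5%), against 6.25% of the genome. H3K27ac covered 40.1% (39.2 to 41.1%), against 10.4% of the genome. H3K4me1 covered 47.8% (46.8 to 48.8%), against 12.04% of the genome. When chromosomes were divided end to end into stretches of the window's length, 3 of 1620 were covered more by K562 H3K122ac than the cluster was. The same held for 13 of 1608 stretches for K562 H3K27ac and 4 of 1608 for K562 H3K4me1. Among 1268 mouse stretches, 68 exceeded the cluster for H3K64ac, 115 for H3K122ac and 446 for H3K27ac.

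Coverage was lower in both flanks for each list, except for mESC H3K27ac on the left. Stretches of the window's length on either side of the mouse cluster were covered at 11.4% on the left and 8.38% on the right by H3K122ac, 10.4% and 7.17% by H3K64ac, and 9.39% and 6.89% by H3K27ac. The human flanks were covered at 6.79% on the left and 5.69% on the right by H3K122ac, 9.71% and 11.3% by H3K27ac, and 12.8% and 12.1% by H3K4me1.

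Cluster islands were longer than the rest for every mark but mESC H3K27ac. In mESC the median length was 2600 bp for H3K122ac in the cluster and 1800 bp elsewhere, and 3100 bp for H3K64ac in the cluster and 2600 bp elsewhere. For mESC H3K27ac it was 1100 bp in the cluster and 1200 bp elsewhere. In K562 it was 3000 bp for H3K122ac in the cluster and 1800 bp elsewhere, 1800 bp for H3K27ac and 1200 bp elsewhere, and 4000 bp for H3K4me1 and 2000 bp elsewhere. Islands over 10 kb numbered 8 of 107 for mESC H3K122ac (1.88% of the whole list), 13 of 70 for H3K64ac (4.58% of the list) and 0 of 150 for H3K27ac (0.421% of the list). In K562 they numbered 12 of 136 for H3K122ac (2% of the list), 8 of 274 for H3K27ac (0.685% of the list) and 21 of 174 for H3K4me1 (4.35% of the list). Islands of H3K27ac were called with a smaller gap setting than the other marks in both cell lines, so lengths were compared only within a list.

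Fold is the authors' ratio of reads in the immunoprecipitated library to reads in the background library, after scaling for library size. In mESC the cluster islands had higher folds than the others for all 3 marks. The median H3K122ac fold was 4.23 in the cluster (3.65 to 4.99), against 2.83 in all other islands. The median H3K64ac fold was 3.82 (3.08 to 4.32), against 2.42 elsewhere, and the median H3K27ac fold was 1.86 (1.69 to 1.99), against 1.49 elsewhere. A fold of 3 or more was reached by 83 of 107 H3K122ac islands (77.6%, against 46.3% of the list), 45 of 70 H3K64ac islands (64.3%, against 36.2% of the list) and 21 of 150 H3K27ac islands (14.0%, against 4.44% of the list). All 3 intervals of the median lay above the median of the other islands.

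In K562 the folds of the cluster islands lay nearer to those of their lists. The median H3K122ac fold was 6.27 in the cluster (4.93 to 8.23), against 5.33 elsewhere. The median H3K27ac fold was 2.36 (2.18 to 2.50), against 2.27 elsewhere, and the median H3K4me1 fold was 2.63 (2.43 to 2.75), against 2.72 elsewhere. Each interval held the median of the other islands. A fold of 3 or more was reached by 107 of 136 H3K122ac islands (78.7%, against 77.6% of the list), 93 of 274 H3K27ac islands (33.9%, against 27.9% of the list) and 59 of 174 H3K4me1 islands (33.9%, against 42.4% of the list). Set against the rest of human chromosome 6 alone, each median was higher in the cluster, at 6.27 against 4.19 for H3K122ac, 2.36 against 2.04 for H3K27ac and 2.63 against 2.31 for H3K4me1, and the intervals lay above the chromosome's values. In mouse the rest of chromosome 13 had medians of 2.80 for H3K122ac, 2.43 for H3K64ac and 1.50 for H3K27ac, near those of the whole lists.

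**Figure D1:**
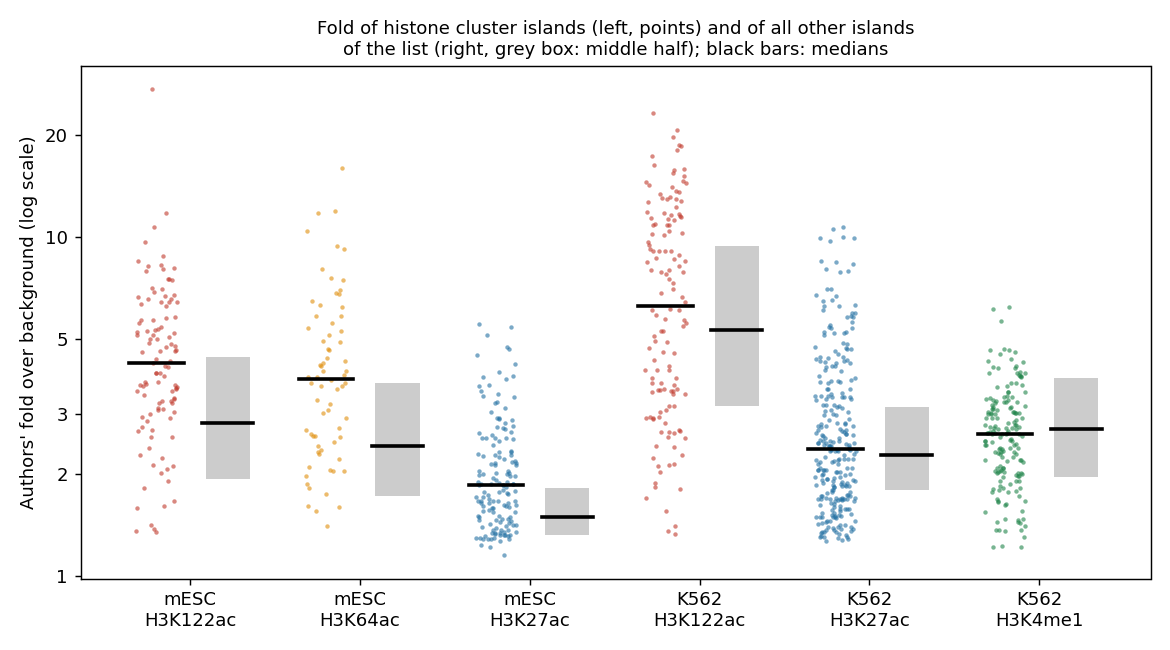
Fold over background, on a log scale, of each cluster island (coloured points, left of each pair) and of all other islands of the same list (grey box for the middle 50% of values, right of each pair), with black bars at the medians. In mESC the cluster medians of 4.23, 3.82 and 1.86 lie above the other islands' 2.83, 2.42 and 1.49, while the K562 medians lie close together within each pair.

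Reads of the background library were fewer per kb in cluster islands than elsewhere in mESC and more in K562. In mESC the cluster medians were 46.5 per kb for H3K122ac islands, against 61.9 elsewhere, 44.2 for H3K64ac islands, against 58.3 elsewhere, and 50 for H3K27ac islands, against 60 elsewhere. In K562 they were 63.7 per kb in cluster H3K122ac islands, against 52.5 elsewhere, 64.1 for H3K27ac, against 55 elsewhere, and 60.01 for H3K4me1, against 52 elsewhere. Over the rest of human chromosome 6 the medians were 65.4, 63.8 and 62.4 per kb in that order of marks. A measure that subtracts the background instead of dividing by it, the scaled read excess per kb of island, was higher in the cluster for each list. For H3K122ac its median was 151 in mESC cluster islands, against 104 elsewhere, and 356 in K562 cluster islands, against 216 elsewhere. For mESC H3K64ac it was 121, against 77.6 elsewhere, and for mESC H3K27ac 44.7, against 30.2 elsewhere. For K562 H3K27ac it was 79.5, against 68.1 elsewhere, and for H3K4me1 89.1, against 85.5 elsewhere. The part of the background level in the fold differences was not tested.

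Along the mouse window the islands lay in a dense stretch at each end with a sparse middle. The first 500 kb were covered at 32.7% by H3K122ac, 36.3% by H3K64ac and 11.1% by H3K27ac. The next 1200 kb were covered at 4.45% by H3K122ac, 4.03% by H3K64ac and 4.67% by H3K27ac. The last 400 kb were covered at 50.7% by H3K122ac, 52.1% by H3K64ac and 20.7% by H3K27ac. The fullest 100 kb began 1800 kb into the window, with 73.8 kb in H3K122ac islands, 83.6 kb in H3K64ac islands and 34.6 kb in H3K27ac islands.

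**Figure D2:**
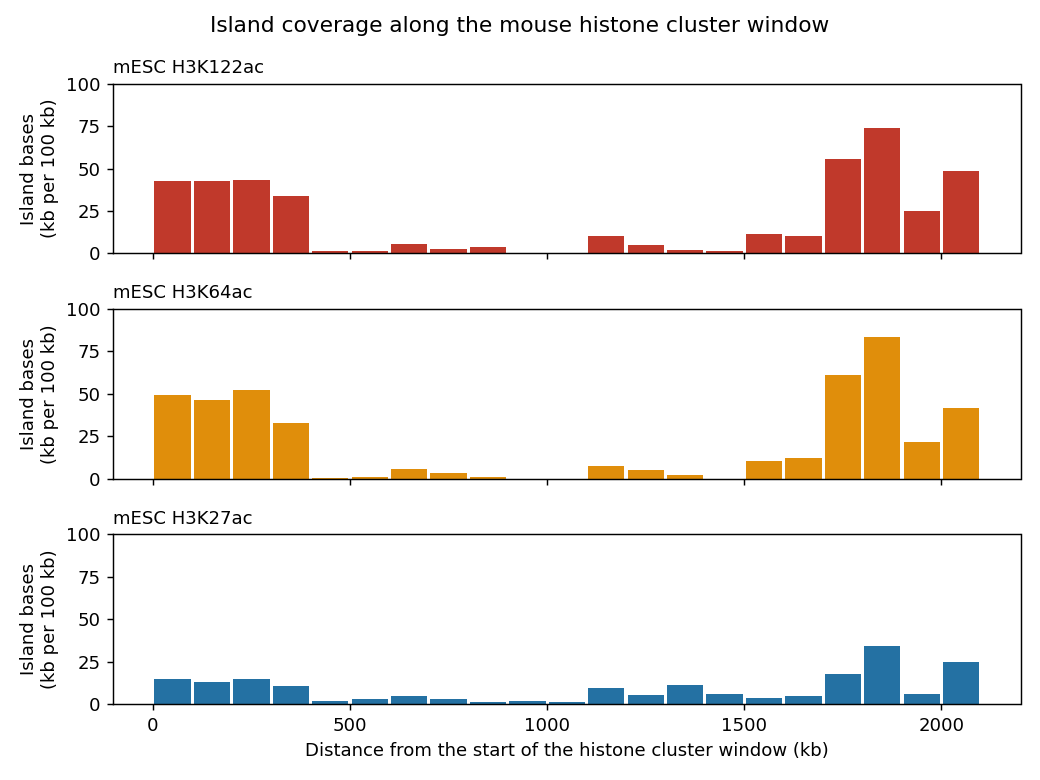
Sequence inside islands, in kb per 100 kb, along the mouse histone window in mESC for H3K122ac, H3K64ac and H3K27ac, by distance from the window start. The fullest bin, at 1800 kb, held 73.8 kb of H3K122ac, 83.6 kb of H3K64ac and 34.6 kb of H3K27ac islands, and the middle 1200 kb was covered at 4.03 to 4.67%.

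The middle held long stretches without islands of a mark. No H3K122ac island lay in chr13:22675601-22920200 of mm9, a gap of 244.6 kb, and no H3K64ac island in chr13:22666601-22920000, a gap of 253.4 kb. The longest stretch without H3K27ac was shorter, at 132.0 kb in chr13:23258201-23390200. H3K27ac islands met the globular-domain marks less in the middle than at the ends: 46 of 48 in the first stretch and 49 of 49 in the last met an H3K122ac island, against 18 of 53 in the middle, where the whole list stood at 55%. For H3K27ac with H3K64ac the counts were 46 of 48, 49 of 49 and 14 of 53 in the first, last and middle stretches, where the whole list stood at 50.2%. Both ends thus lay above the list and the middle (34.0% with H3K122ac and 26.4% with H3K64ac) below it. H3K122ac islands of the middle were few but had a median fold of 4.05, between the 4.86 of the first stretch and the 3.68 of the last.

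The human window was broken by long stretches without islands of any of the 3 marks. Coverage by H3K122ac was 45.7% in the first 300 kb, 25.1% in the next 700 kb, 36.2% in the next 200 kb, 24.5% in the next 500 kb and 46.3% in the last 200 kb. H3K27ac covered 72.9%, 30.8%, 40.2%, 26.04% and 58.8% of the same stretches. H3K4me1 covered 70.0%, 36.8%, 49.7%, 45.4% and 57.1% of them. Of these stretches the first 300 kb was fullest for H3K27ac and H3K4me1, while H3K122ac was about equal at both ends. The 100 kb just after it held more H3K122ac (73.4 kb) and H3K4me1 (87.4 kb) than any other, and 80.0 kb of H3K27ac. Limits of the stretches in both windows followed the known layout of histone gene blocks with other genes between them. No human gene was placed here, so a stretch is not shown to be a block. The 100 kb that began 800 kb into the window held no island of any list.

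**Figure D3:**
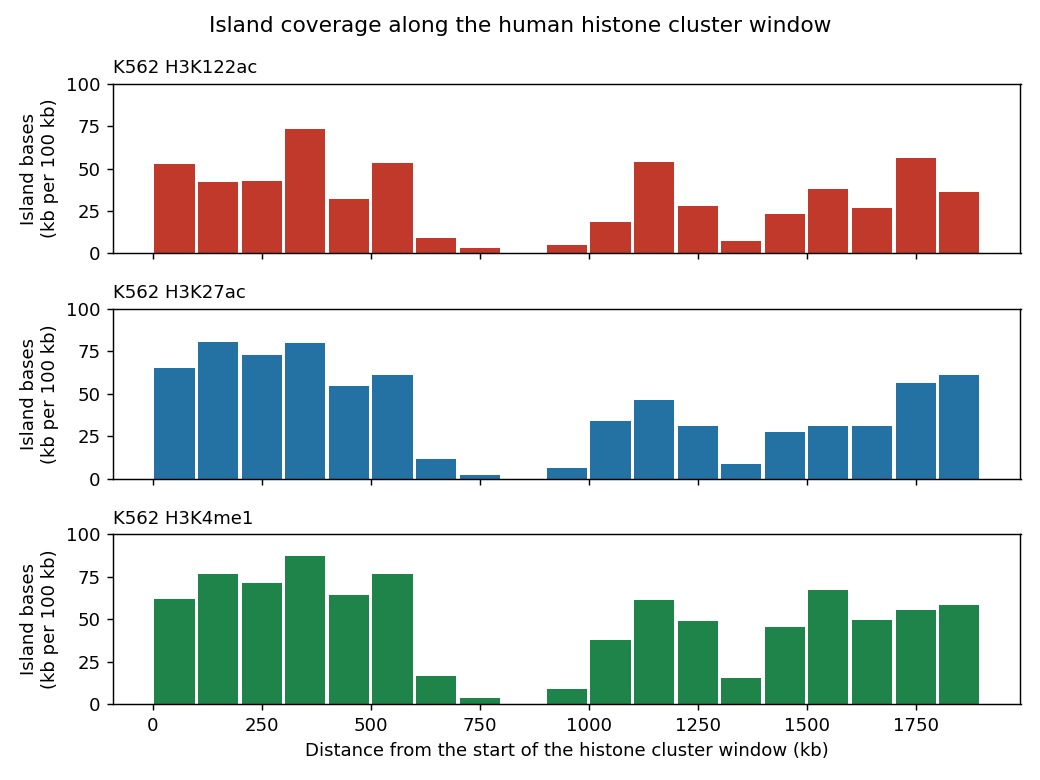
Sequence inside islands, in kb per 100 kb, along the human histone window in K562 for H3K122ac, H3K27ac and H3K4me1, by distance from the window start. The bin at 800 kb is empty for all 3 marks, and the fullest H3K122ac and H3K4me1 bins, both at 300 kb, held 73.4 kb and 87.4 kb.

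The longest empty human stretch ended at the same base for both acetyl marks. H3K122ac had no island in chr6:26758601-26924000 of hg19 (165.4 kb), H3K27ac none in chr6:26757801-26924000 (166.2 kb) and H3K4me1 none in chr6:26758801-26973000 (214.2 kb). Just to its left, the next longest gaps were chr6:26663601-26755400 for H3K122ac (91.8 kb), chr6:26660801-26755600 for H3K27ac (94.8 kb) and chr6:26664601-26755400 for H3K4me1 (90.8 kb). The island that closed the longest gap for H3K122ac, at chr6:26924001-26926000, had the highest fold of that mark in the window, 23.2, from 102 reads over 17 background reads. Its background of 8.5 reads per kb was far under the cluster median of 63.7. It met 2 H3K27ac islands, with folds of 10.7 and 5.19 over 8 and 7 background reads, and no H3K4me1 island.

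The longest H3K122ac, H3K64ac and H3K27ac islands of the mouse window stood in its last dense stretch. An H3K64ac island of 60400 bp at chr13:23621401-23681800 was the 2nd longest of the 57512 in its list. It held 21735 reads over 1702 background reads, a fold of 11.8 and the 98.8th percentile of its list. In the same place H3K122ac was called as 7 islands that together covered 52.0 kb of it, with folds of 2.12 to 11.7, and H3K27ac as 14 islands that covered 29.2 kb, with folds of 1.28 to 4.67. The median rank of those islands was the 89.97th percentile of the H3K122ac list and the 94.3rd percentile of the H3K27ac list. All 3 marks were therefore high in their lists there, and H3K27ac came in shorter pieces. The authors allowed a gap of 200 bp inside H3K27ac islands and 600 bp for the other marks, and joining H3K27ac islands across 600 bp left 128 of them in the whole mouse window, against 150 as called.

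A second block, 31200 bp long, was called with nearly equal ends for both globular-domain marks. The H3K64ac island at chr13:23826401-23857600 held 16239 reads over 937 background reads, a fold of 16.0 and the highest of its mark in the window, at the 99.5th percentile of its list. The H3K122ac island at chr13:23826201-23857400 held 6560 reads over 952 background reads, a fold of 7.55 at the 92.5th percentile, and was the longest H3K122ac island in the window and the 20th longest of 92957. In this block 10 H3K27ac islands covered 21.8 kb with folds of 1.64 to 5.43. Background reads were 28.2 per kb in the 60400 bp island and 30.03 per kb in the 31200 bp H3K64ac island, under the H3K64ac cluster median of 44.2.

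**Figure D4:**
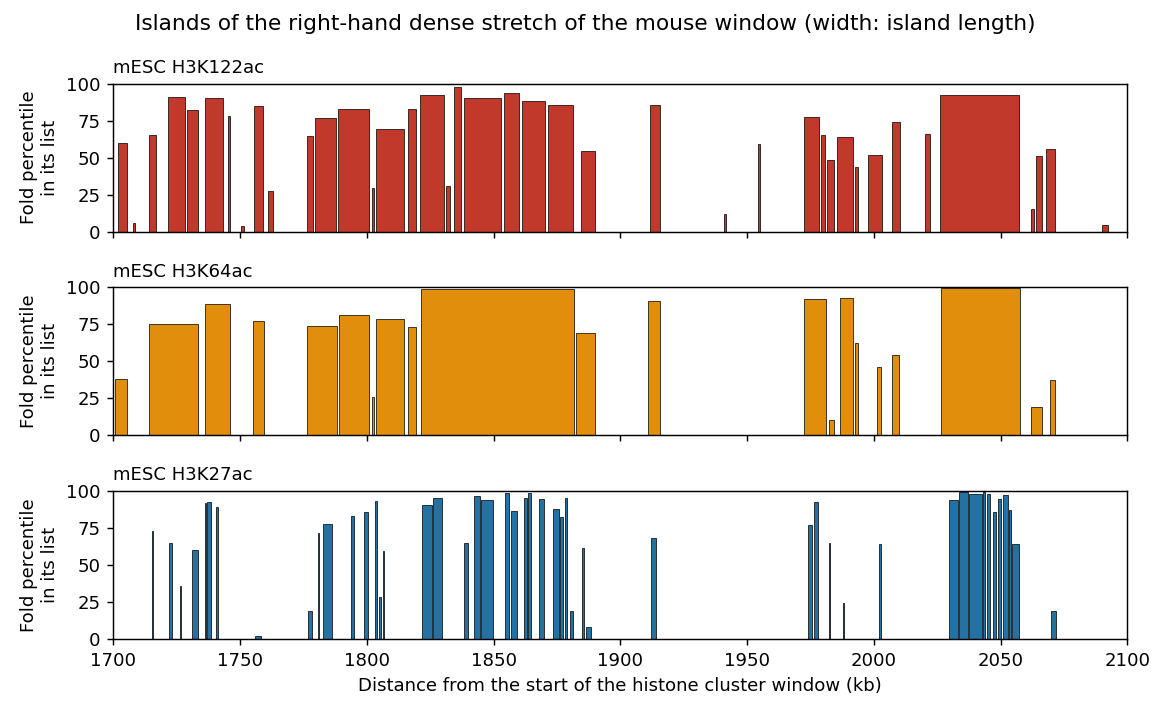
Islands in the last 400 kb of the mouse window in mESC for H3K122ac, H3K64ac and H3K27ac, with width for island length, position as distance from the window start and height for the percentile of the island's fold in its own list. The H3K64ac island of 60400 bp begins at 1821.4 kb and overlies 7 H3K122ac and 14 H3K27ac islands, and the 31200 bp block begins at 2026.4 kb for H3K64ac and at 2026.2 kb for H3K122ac.

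The next longest H3K122ac and H3K64ac islands lay in the first dense stretch. An H3K122ac island of 17600 bp at chr13:22119801-22137400 (fold 4.16, 2771 reads over 730) lay wholly inside an H3K64ac island of 20800 bp at chr13:22117201-22138000 (fold 6.78, 6224 reads over 848). Another H3K122ac island, of 17400 bp at chr13:21942801-21960200, had a fold of 5.08 (3188 reads over 688). H3K64ac reached 11.9 at chr13:21839201-21848200 (2507 reads over 194). H3K27ac islands stayed at or under 5000 bp. The longest of them, at chr13:23837601-23842600, had a fold of 3.86 (1223 reads over 145) inside the 31200 bp block. The others in order of length, at chr13:23645201-23649600 (4400 bp, fold 2.74) and chr13:23582601-23586400 (3800 bp, fold 1.88), also lay in the last stretch.

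Among islands with at least 10 background reads, the highest H3K122ac folds were 11.7 at chr13:23634401-23637000 (472 reads over 44), 9.67 at chr13:22674401-22675600 (203 over 23) and 8.80 at chr13:22036001-22038600 (1246 over 155). The first met H3K64ac without H3K27ac. The second met neither mark and bordered the 244.6 kb gap of H3K122ac. The third met both marks. The highest H3K27ac folds were 5.54 at chr13:21879601-21880600 (242 over 20), 5.43 at chr13:23843001-23843800 (166 over 14) and 5.13 at chr13:23833401-23837000 (920 over 82), and all 3 lay under both globular-domain marks. A fold of 27.4 for H3K122ac at chr13:22514601-22515000 rested on 75 reads over 3 background reads and is named because its value stood out. The lowest folds in the window were 1.34 for H3K122ac at chr13:23550401-23551600, 1.40 for H3K64ac at chr13:23782201-23784200 and 1.15 for H3K27ac at chr13:23556001-23558400.

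In K562 the longest islands of different marks overlapped. At chr6:26020601-26040400 an H3K122ac island of 19800 bp had 4057 reads over 1169 and a fold of 13.4, and an H3K27ac island of 18600 bp began at the same base with 6340 reads over 1093 and a fold of 8.44. The longest H3K122ac island, 24800 bp at chr6:27093801-27118600, had 3060 reads over 968 and a fold of 12.2. It held the H3K27ac island at chr6:27093001-27108200 almost whole, with 4298 reads over 591 and a fold of 10.6 at the 99.6th percentile of its list. Of the longest H3K122ac island, 97.6% was covered by H3K27ac and 71.0% by H3K4me1. One H3K122ac island of 21600 bp, at chr6:26335601-26357200, was of lower fold, 4.54 (1644 reads over 1403), and lay inside the longest H3K4me1 island, 33400 bp at chr6:26323201-26356600 with a fold of 4.14 (5046 reads over 2100), over all but its end.

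The longest H3K27ac island, 19200 bp at chr6:26193401-26212600, had a fold of 8.04 (5538 reads over 1002) and met an H3K122ac island of fold 14.0. After it and the 18600 bp island above came 1 of 15800 bp at chr6:26295601-26311400, which had a fold of 4.52 and lay under H3K122ac and H3K4me1 over its whole length. H3K27ac folds of 9.98 at chr6:26120401-26128000 and 9.96 at chr6:27799401-27808800 followed the 10.6 of the island above. The H3K122ac folds next to the 23.2 were 20.8 at chr6:27355801-27357800 (638 reads over 119) and 19.7 at chr6:27660401-27663200 (672 over 132). At the same 2 places H3K27ac had folds of 3.32 and 5.13. H3K4me1 was highest at chr6:26287201-26287600, with a fold of 6.20 from 36 reads over 10, followed by chr6:27102801-27109800 with 6.13 from 922 reads over 259. Further long H3K4me1 islands were 21200 bp at chr6:26294401-26315600 (fold 4.11) and 18600 bp at chr6:26126801-26145400 (fold 3.23), and the next fold after 6.13 was 5.66 at chr6:27139001-27144400. The lowest folds were 1.33 for H3K122ac at chr6:26581001-26584000, 1.27 for H3K27ac at chr6:26527601-26530800 and 1.21 for H3K4me1 at chr6:27148401-27152600.

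Ranks in the lists followed the folds. In mESC the top 10% of each list by fold held 18 of 107 H3K122ac islands (16.8%), 17 of 70 H3K64ac islands (24.3%) and 40 of 150 H3K27ac islands (26.7%). In K562 it held 11 of 136 for H3K122ac (8.09%), 43 of 274 for H3K27ac (15.7%) and 3 of 174 for H3K4me1 (1.72%). The bottom 10% held 4 H3K122ac islands (3.74%), no H3K64ac island and 2 H3K27ac islands (1.33%) in mESC. In K562 it held 12 H3K122ac islands (8.82%), 42 H3K27ac islands (15.3%) and 17 H3K4me1 islands (9.77%). The mESC islands thus leaned to high ranks, whereas K562 H3K27ac islands were about as frequent at the bottom of their list as at its top.

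Overlap between marks, counted as islands that met an island of the other list by at least 1 bp, was higher in the cluster for most pairs. In mESC 87 of 107 H3K122ac islands met H3K64ac (81.3%, 72.9 to 87.6%), against 60.6% of the list. The share that met H3K27ac was 59 of 107 (55.1%, 45.7 to 64.2%), against 55.6% of the list. From the other side, 113 of 150 H3K27ac islands met H3K122ac (75.3%, 67.9 to 81.5%), against 55% of the list, and 109 of 150 met H3K64ac (72.7%, 65.0 to 79.2%), against 50.2% of the list. Of H3K64ac islands, 66 of 70 met H3K122ac (94.3%, 86.2 to 97.8%), against 93.5% of the list, and 45 of 70 met H3K27ac (64.3%, 52.6 to 74.5%), against 72.5% of the list. The gain was on the H3K27ac side and for H3K122ac islands with H3K64ac. H3K64ac islands met H3K122ac about as often as in the list. The share of either globular-domain mark that met H3K27ac was near or under that of the list. When H3K27ac had to cover at least 50% of the island, the shares were 26.2% of cluster H3K122ac islands, against 41.1% elsewhere, and 21.4% of cluster H3K64ac islands, against 50.4% elsewhere. Counting H3K27ac islands with a fold of 3 or more alone turned the order round, with 10.3% of cluster H3K122ac islands, against 3.68% elsewhere, and 12.9% of cluster H3K64ac islands, against 5.46% elsewhere.

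In K562 all 6 shares were higher in the cluster at an overlap of 1 bp. H3K122ac islands met H3K27ac in 132 of 136 cases (97.1%, 92.7 to 98.9%), against 78.1% of the list, and met H3K4me1 in 132 of 136 (97.1%, 92.7 to 98.9%), against 85.8% of the list. H3K27ac islands met H3K122ac in 185 of 274 cases (67.5%, 61.8 to 72.8%), against 41.9% of the list, and H3K4me1 in 248 of 274 (90.5%, 86.5 to 93.4%), against 69.4% of the list. H3K4me1 islands met H3K122ac in 132 of 174 cases (75.9%, 69.0 to 81.6%), against 54.2% of the list, and H3K27ac in 155 of 174 (89.1%, 83.6 to 92.9%), against 70% of the list. When H3K4me1 islands had to have a fold of 3 or more, 47.1% of cluster H3K122ac islands met one, against 50.8% elsewhere, and 37.2% of cluster H3K27ac islands did, against 39.7% elsewhere. Cluster islands that met another mark were also the longer ones. The median was 2400 bp for K562 H3K27ac islands that met H3K122ac and 1200 bp for those that did not. Islands also covered more of the K562 window than of the genome, at 31.6% against 6.25% for H3K122ac, 40.1% against 10.4% for H3K27ac and 47.8% against 12.04% for H3K4me1. The parts of length and of coverage in the shares of either cell line were not tested.

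**Figure D5:**
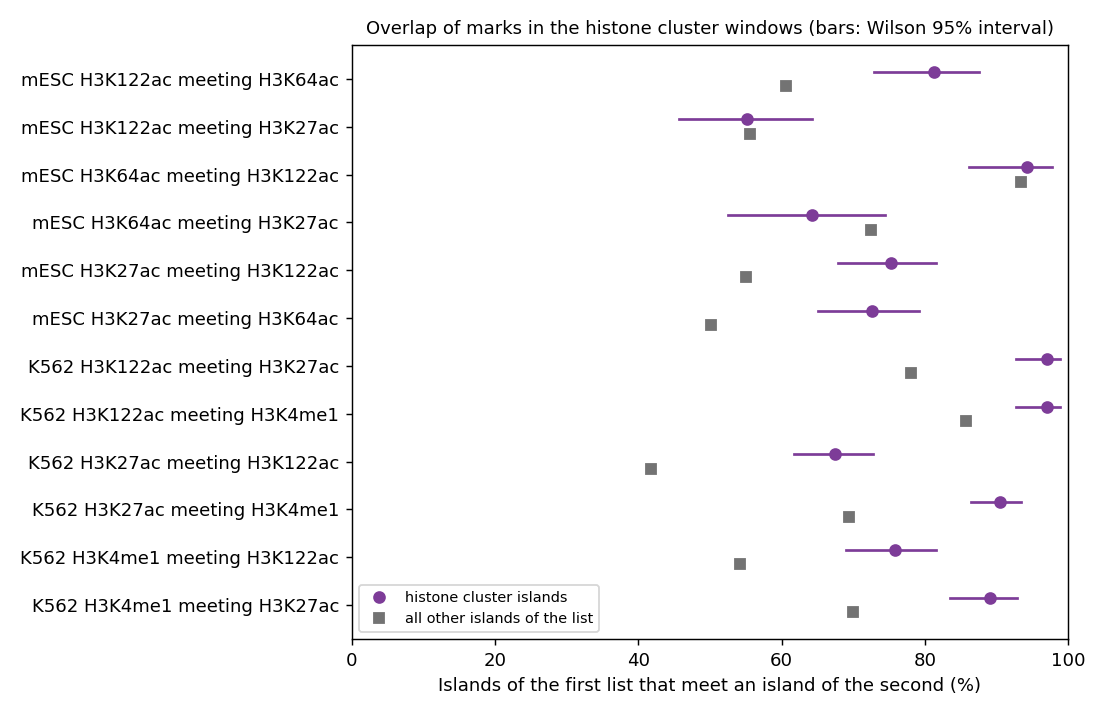
Share of islands of the first-named mark that met an island of the second by at least 1 bp, in percent, for cluster islands (purple circles with Wilson 95% intervals, upper of each pair) and all other islands of the list (grey squares, lower of each pair). All 6 K562 shares lie above those of the other islands, while mESC H3K122ac with H3K27ac stood at 55.1% in the cluster and 55.6% elsewhere.

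Counted over bases, H3K27ac covered less of both globular-domain marks in the mESC cluster than elsewhere. For shares of islands that order had turned round at a fold of 3. The other base shares given here were higher in the cluster. H3K27ac islands covered 36.9% of the sequence in mESC cluster H3K122ac islands, against 44.2% in other H3K122ac islands, and 34.8% of that in cluster H3K64ac islands, against 49.9% in others. H3K64ac covered 89.2% of cluster H3K122ac sequence, against 69.1% elsewhere. In K562 H3K27ac covered 87.5% of cluster H3K122ac sequence, against 70.4% elsewhere. Over the mouse window 152.2 kb lay under all 3 marks, 223.6 kb under H3K122ac and H3K64ac without H3K27ac, and 75.2% under none. Over the human window 463.0 kb lay under all 3 marks, 62.2 kb under both acetyl marks without H3K4me1, 61.0 kb under H3K122ac and H3K4me1 without H3K27ac, and 45.3% under none.

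Sorting the mESC H3K122ac islands by the company they kept gave 56 with both other marks (52.3%, against 44.5% of the list). Another 31 met H3K64ac alone (29.0%, against 16.1% of the other islands). A further 3 met H3K27ac alone (2.80%, against 11.1%) and 17 met neither (15.9%, against 28.4% of the other islands). In that order, the fold had medians of 5.30, 3.50, 2.38 and 2.23, and the length had medians of 4100, 1400, 1200 and 1000 bp. Among all other H3K122ac islands the fold medians fell in the same order, at 3.69, 2.87, 2.21 and 2.10. Their length medians were 2800, 2000, 1200 and 1000 bp. Of H3K64ac islands, 45 met both other marks (64.3%, against 68.8% of the list), 21 met H3K122ac alone (30%, against 24.7% of the other islands), none met H3K27ac alone (against 3.77%) and 4 met neither (5.71%, against 2.77%). H3K27ac islands with both globular-domain marks numbered 109 (72.7%, against 45.3% of the list), 4 met H3K122ac alone (2.67%, against 9.77% of the other islands), none met H3K64ac alone (against 4.90%) and 37 met neither (24.7%, against 40.1%). Their median fold was 2.00 with both marks and 1.50 with neither. Among all other H3K27ac islands it was 1.58 with both and 1.44 with neither. Higher folds in islands with all 3 marks were thus not particular to the cluster.

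Mouse islands that lacked 1 or both partners had lower median folds than those with both, in the cluster and among all other islands. The strongest cluster islands with at least 10 background reads are given for each class. The H3K64ac island with H3K122ac alone and the highest fold, 6.98 (136 reads over 18), lay at chr13:22933001-22934200. The best H3K64ac island with no partner had a fold of 2.70 at chr13:21851401-21854600. Among H3K27ac islands with neither globular-domain mark the best, at chr13:23106601-23108400 in the sparse middle, had a fold of 3.24 (276 reads over 39) at the 96.5th percentile of its list. H3K122ac with H3K27ac alone peaked at a fold of 2.68 at chr13:23249001-23250400, where the H3K27ac island with H3K122ac alone had a fold of 1.58.

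In K562 130 of 136 H3K122ac islands met both other marks (95.6%, against 73.9% of the list). The remaining classes held 2 islands each (1.47%). Of the other islands, 4.27% met H3K27ac alone, 11.9% met H3K4me1 alone and 9.98% met neither. Best of the 2 with H3K4me1 alone was chr6:27618201-27619400, with a fold of 1.87 from 45 reads over 93, and best of the 2 with neither was chr6:27285401-27286000, with 3.45 from 41 reads over 46. K562 H3K27ac islands met both other marks in 180 cases (65.7%, against 39.2% of the list), H3K122ac alone in 5 (1.82%, against 2.63% of the other islands), H3K4me1 alone in 68 (24.8%, against 30.2%) and neither in 21 (7.66%, against 28.0%). K562 H3K4me1 islands met both acetyl marks in 131 cases (75.3%, against 46.5% of the list), H3K122ac alone in 1 (0.575%, against 7.75% of the other islands), H3K27ac alone in 24 (13.8%, against 23.5%) and neither in 18 (10.3%, against 22.3%). Where both marks were met the median H3K27ac fold was 2.81, against 1.69 where H3K4me1 alone was met. Among all other H3K27ac islands these medians were 2.91 and 2.18. With at least 10 background reads, the strongest H3K27ac islands outside H3K122ac reached folds of 3.75 at chr6:26128401-26129000 and 3.72 at chr6:27845401-27846200. With H3K122ac and without H3K4me1 the highest was 4.24 at chr6:27181001-27182200. The strongest H3K4me1 islands outside H3K122ac reached 3.66 at chr6:26269001-26270000, with H3K27ac, and 3.33 at chr6:26073801-26075800, with neither acetyl mark. The sole H3K4me1 island with H3K122ac alone, at chr6:27704801-27706400, had a fold of 1.36.

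Islands called with the same ends in a pair of lists allow a like-for-like look, and each such pair in the windows had equal background counts, as lists made with 1 background library would. In K562 8 islands were identical for H3K122ac and H3K27ac (5.88% of cluster H3K122ac islands, against 7.13% of the list). In all 8 the percentile of the fold was higher in the H3K122ac list. At chr6:27485801-27487600 H3K122ac had 747 reads and H3K27ac 530 over 160 background reads, at the 93.7th and the 90.9th percentile. At chr6:27261601-27264600 the marks had 328 and 305 reads over 305 background reads and stood at the 37.8th percentile for H3K122ac and the 5.90th for H3K27ac. In mESC 5 islands were identical for H3K122ac and H3K64ac (4.67% of cluster H3K122ac islands, against 5.78% of the list). In 3 of the 5 the percentile was higher for H3K122ac. Which percentile was higher was not counted for identical islands elsewhere, so these counts have no baseline. At chr13:21806201-21815600, where it was higher for H3K64ac, the marks had 1768 H3K122ac and 3263 H3K64ac reads over 290. One island, chr13:22260001-22260600, was called with the same ends for all 3 mouse marks, with 173 H3K122ac, 98 H3K64ac and 128 H3K27ac reads over 39. Its fold stood at the 79.0th percentile for H3K122ac, the 47.1st for H3K64ac and the 51.1st for H3K27ac.

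At the window edges the choice of limits touched few members. One mESC H3K122ac island, chr13:21798601-21800200 with a fold of 2.23, straddled the left edge, and the nearest before it, at chr13:21621801-21623800 and far from the edge, had a fold of 8.63. At the right edge the last H3K122ac island inside had a fold of 1.37 and the first outside 1.55. For mESC H3K64ac the first and last islands inside had folds of 3.92 and 2.03, and the nearest outside, at chr13:21622001-21623400 and chr13:24025201-24028000, had 6.21 and 1.92. For mESC H3K27ac the values inside were 2.19 and 1.28, and outside 1.54 and 1.55. In K562 the first and last H3K122ac islands inside had folds of 3.43 and 2.22, and the nearest outside 10.7 and 2.07. For K562 H3K27ac they were 1.86 and 1.90 inside, and 1.96 and 1.69 outside. For H3K4me1 they were 2.62 and 1.30 inside, and 2.45 and 1.96 outside. Distances from the window to the nearest island outside differed widely between lists, so these values are not all of close neighbours.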

How the data were processed

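Per the submitters' processing notes, Bowtie 0.12.8, HOMER 4.3 and SICER 1.1 were used with mm9 and hg19. The sources used here do not give the role of each. Per the labels, islands were called from 200 bp windows at a false discovery rate of 0.01, with gaps of 200 bp (H3K27ac) or 600 bp (other marks). The deposited lists give whole-number read counts of the immunoprecipitated and background libraries, not normalized by the authors. They also give the authors' p-value, q-value and fold, a ratio of the 2 counts scaled for library size. The sources used here do not say which library was the background.

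Islands overlapping the windows by 1 bp were taken, and coverage, medians and overlap shares were computed with Python 3.11.15, numpy 2.4.6, pandas 2.3.3 and scipy 1.17.1. Shares have Wilson intervals, coverage has Wilson intervals over 200 bp windows taken as independent, and medians have order-statistic intervals. No test was run, since there is 1 list per mark. The overlap code was tested on simulated data. Named islands were the 3 longest, the 3 of highest and the 1 of lowest fold in each list, the highest in each class of marks and those at the window edges, with at least 10 background reads for rankings by fold; the promoters were the lowest-numbered gene of each histone type. Members and lists were chosen with earlier results of these data known. Alternatives were islands wholly inside the window, a q-value of at most 1e-10, at least 10 background reads, pooled fold, 50% overlap, a fold of 3 in the second list, and H3K27ac islands joined across 600 bp.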

Additional observations from a re-analysis of the deposited data

How the results depend on the processing

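Of 110 alternative values, 69 stayed within the interval or spread of the value reported and 41 moved. For coverage that interval is the narrow one over 200 bp windows, so small shifts count as moved. With a q-value of at most 1e-10, mESC H3K27ac islands covered 6.50% of the window with a median fold of 2.27. In K562 the coverage was then 29.9% by H3K122ac, 34.0% by H3K27ac (median fold 3.07) and 44.2% by H3K4me1 (median fold 2.78). Folds pooled from summed counts were 5.88 (H3K64ac) and 2.00 (H3K27ac) in mESC, and 8.58 (H3K122ac), 3.69 (H3K27ac) and 2.85 (H3K4me1) in K562. H3K27ac islands joined across 600 bp covered 42.8% of the K562 window.

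Requiring 50% of the island to be covered gave 26.2% of mESC H3K122ac with H3K27ac, against 41.1% elsewhere, 21.4% of H3K64ac with H3K27ac, against 50.4% elsewhere, and 89.7% of K562 H3K122ac with H3K27ac, against 68.5% elsewhere. Requiring a fold of 3 in the second list gave 60.7% of mESC H3K122ac with H3K64ac, against 23.6% elsewhere. With H3K27ac it gave 10.3% of mESC H3K122ac, against 3.68% elsewhere, and 12.9% of H3K64ac, against 5.46% elsewhere. In K562 it gave 54.4% of H3K122ac with H3K27ac, against 40.9% elsewhere, and 57.7% of H3K27ac with H3K122ac, against 35.1% elsewhere. With H3K4me1 it gave 47.1% of K562 H3K122ac, against 50.8% elsewhere, and 37.2% of H3K27ac, against 39.7% elsewhere. At a fold of 3 the order of cluster and other islands thus turned round for both H3K4me1 shares and for both mESC shares with H3K27ac. With the stricter q-value the mESC shares were 40.8% of H3K122ac with H3K27ac, against 36.7% elsewhere, and 48.5% of H3K64ac with H3K27ac, against 52.5% elsewhere. For mESC H3K27ac with H3K122ac the share was 88.9%, against 71.2% elsewhere. In K562 they were 90.4% of H3K122ac with H3K27ac, against 68.7% elsewhere, and 78.8% of H3K27ac with H3K122ac, against 52.4% elsewhere. The order for mESC H3K122ac with H3K27ac thus depended on the setting, lower in the cluster at 50% cover and higher at the stricter q-value.

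No paired analysis was possible because the authors merged the mouse replicates and K562 had 1 library per mark. Leaving out a replicate was not run for the same reason. Few background reads make a fold imprecise: 2 mESC H3K122ac, 1 mESC H3K27ac and 3 K562 H3K27ac islands had under 10.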
